A study of Mus musculus with 2 samples.

Results

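Cytoplasmic ribosomal protein genes of the mouse were examined for open chromatin at their promoters in the embryonic hindbrain. They were taken from the GENCODE M21 annotation as protein-coding genes with an Rpl or Rps symbol followed by a digit, with Rplp0, Rplp1, Rplp2 and Rpsa, and without the Rps6k kinases, Rps19bp1 and symbols of pseudogene form. The rule gave 85 of the 21851 protein-coding genes on chromosomes 1 to 19, X and Y. Of these, 43 code for proteins of the large subunit, 31 for proteins of the small subunit and 3 for the stalk of the large subunit. The remaining 8 are paralog copies, whose symbols are those of another gene of the set with l, l1 or rt added. DNase-seq, which maps where the nuclease DNase I cuts accessible DNA, had been done on whole hindbrain of B6NCrl embryos at embryonic day 11.5, with males and females pooled. There was 1 group of 2 libraries, labelled biological replicates 1 and 2 under the same donor entry, with no treatment, mutation or control tissue. No test between conditions could therefore be made, and every comparison sets the ribosomal protein genes beside other genes of the same library.

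Each ribosome holds a single copy of nearly every ribosomal protein, so their genes are transcribed at high and matched levels in growing cells. The proteins are made in the cytoplasm, imported into the nucleolus and assembled with ribosomal RNA into a small subunit, which decodes the mRNA, and a large subunit, which forms peptide bonds. Many of the genes carry snoRNAs in their introns, and their transcripts begin with a terminal oligopyrimidine (TOP) tract, through which mTOR signalling sets their translation. Progenitors of the embryonic hindbrain divide fast and need many ribosomes.

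The authors' peak files list peaks of 150 bp, each with a height on their own scale, and hotspots, which are broader regions of enriched cutting. Replicate 1 had 150613 deposited peaks with a median height of 36, and replicate 2 had 195264 with a median height of 50 over those analysed. The read depth is unknown, and the scales of the 2 libraries were not taken as common. A promoter is called open where a peak summit, which is the centre of the peak, lay within 1 kb of an annotated start. In a whole tissue, a higher peak can come from more cells with the site open or from a more accessible site in each cell, which cannot be told apart. Of 9 hindbrain marker genes, 6 had an open promoter in replicate 1 and 9 in replicate 2. Hoxa2, Hoxb1 and Hoxb2, which pattern the hindbrain segments, had none in replicate 1, while 5 of 5 forebrain markers were open in both libraries. Values are for this reason given for each library. Markers of other cell types were open in both libraries at 1 of 4 erythroid, 2 of 4 myeloid, 1 of 4 testis and 2 of 4 muscle genes.

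The DNA around the start of the genes with the highest and the lowest promoter peaks is shown first, since the heights, summit positions and motifs described below refer to it. Each sequence runs 5′ to 3′ along the gene, in mm10 coordinates (GRCm38), from 100 bases before the annotated start to the first 20 bases of the transcript. Capitals mark matches to CCGGAA, the core recognised by ETS factors, to TCGCGA, or to AANATGGCG, the YY1 core, on either strand, and a run of 8 or more pyrimidines at the start. In Rpsa the pyrimidine run and a CCGGAA match on the other strand overlap, and in Rpl13a the run continues past the last base shown. The first 4 are from the highest promoters and the last pair from the lowest.
Rpsa, chr9:120127589-120127708, plus strand: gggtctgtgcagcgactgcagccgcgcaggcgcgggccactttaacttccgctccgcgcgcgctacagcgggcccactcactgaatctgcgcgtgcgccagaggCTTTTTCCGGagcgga
Rpl15, chr14:18271048-18271167, minus strand: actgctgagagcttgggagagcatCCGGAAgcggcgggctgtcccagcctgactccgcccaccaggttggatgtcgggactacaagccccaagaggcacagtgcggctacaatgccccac
Rpl28, chr7:4792774-4792893, plus strand: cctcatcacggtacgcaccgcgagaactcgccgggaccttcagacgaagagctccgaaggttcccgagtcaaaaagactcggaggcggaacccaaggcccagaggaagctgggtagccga
Rpl13a, chr7:45128742-45128861, minus strand: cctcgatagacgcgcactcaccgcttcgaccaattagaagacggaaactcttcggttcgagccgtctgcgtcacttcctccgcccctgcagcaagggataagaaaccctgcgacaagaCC
Rpl6, chr5:121204381-121204500, plus strand: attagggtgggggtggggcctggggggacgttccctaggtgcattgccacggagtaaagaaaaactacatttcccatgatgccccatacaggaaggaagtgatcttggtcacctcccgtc
Rpl39, chrX:37085383-37085502, minus strand: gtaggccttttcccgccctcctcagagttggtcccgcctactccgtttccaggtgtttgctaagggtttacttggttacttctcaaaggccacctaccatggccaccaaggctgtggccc

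Nearly all ribosomal protein genes had an open promoter. A peak was present within 1 kb of a start in both libraries at 81 of the 85 genes, or 95.3% (exact Clopper-Pearson 95% interval 88.4 to 98.7%, counting error only), against 66.2% of all protein-coding genes. All 43 large subunit genes, all 31 small subunit genes and all 3 stalk genes were open in both. The 4 genes without a peak were paralog copies, namely Rpl10l, Rpl39l, Rpl3l and Rps27rt, and the same 4 lacked one in each library. The annotated start itself lay inside a hotspot at the same 95.3% of ribosomal protein genes in each library, against 58.0% of all protein-coding genes in replicate 1 and 63.3% in replicate 2. Nearly all of these hotspots stood at 100, the value that the files give to the strongest, with 80 in replicate 1 and 81 in replicate 2. Rpl35 was the exception, with a value of 2.28 on the −log10 scale in replicate 1. Most start hotspots of all protein-coding genes also stood at 100, with 11593 of 12682 in replicate 1 and 13228 of 13826 in replicate 2.

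The peaks were higher than at most promoters but rarely among the extremes. In replicate 1 the highest promoter peak of an open ribosomal protein gene had a median height of 112 (quartiles 105 and 119, range 83 to 127), against a median of 100 (quartiles 73 and 114) over all open protein-coding promoters. In replicate 2 the median was 132 (quartiles 127 and 137, range 109 to 143), against 126 (quartiles 106 and 134). The median ribosomal protein gene thus stood at percentile 71.6 of open promoters in replicate 1 and at percentile 67.0 in replicate 2. A height at or above percentile 75 of open promoters in both libraries was found at 29 of 85 ribosomal protein genes (34.1%), against 11.7% of all protein-coding genes. Both shares count closed genes. Among genes open in both libraries, it was 29 of 81, against 2550 of 14461. Of the other lists described below, the share was 52.4% of TOP transcripts outside the set and 38.2% of translation initiation factors. It was 20.4% of ribosome assembly factors and 17.9% of mitochondrial ribosomal protein genes. Within the set, large subunit genes had a median of 112 in replicate 1 and 132 in replicate 2, and small subunit genes 116 and 133. The stalk genes, with medians of 111 and 132, and the open copies, with 111.5 and 134, lay within a few units of these, and the 4 classes overlapped in both libraries.

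**Figure D1:**
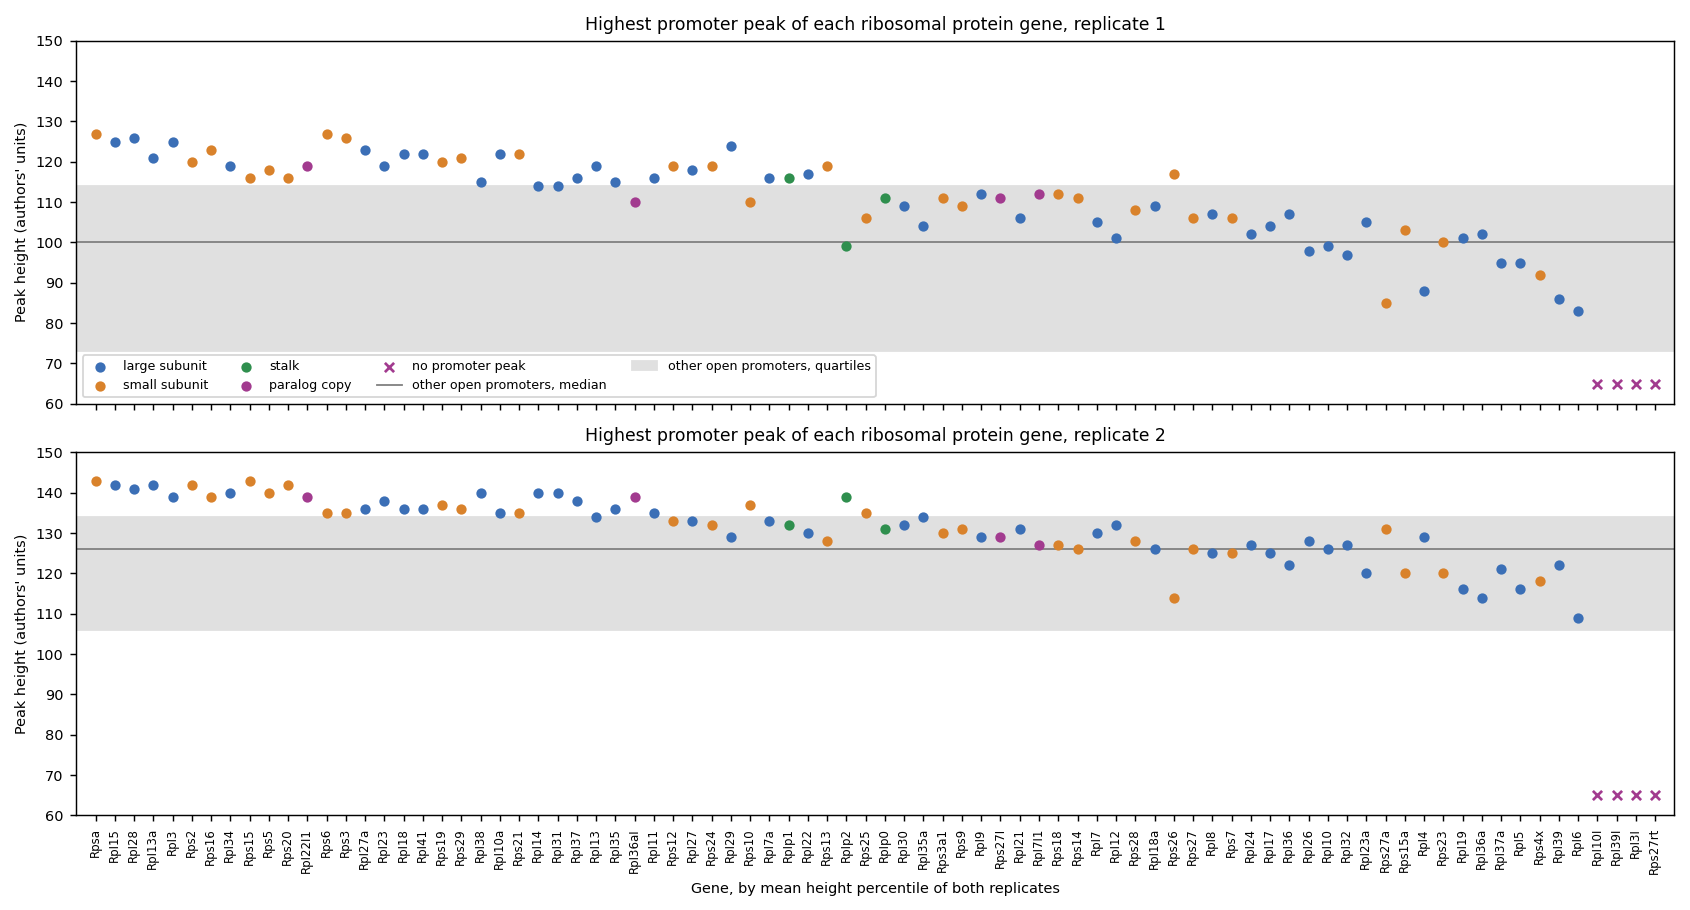
Height of the highest promoter peak (y axis, authors' units) for 82 of the 85 ribosomal protein genes (x axis, ordered by the mean percentile of both replicates), with replicate 1 above replicate 2; colours give the class, crosses at the lower edge mark genes with no promoter peak and are not heights, and grey gives the quartiles and median of other open promoters. Each y axis starts above 0. The points run between 83 and 127 in replicate 1 and between 109 and 143 in replicate 2, with large and small subunit genes mixed along the order and 4 copies without a peak.

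Rpsa, the small subunit protein also known as the laminin receptor precursor, was highest, with 127 in replicate 1 and 143 in replicate 2. Rpl15, a large subunit protein, followed with 125 and 142, and Rpl28 with 126 and 141. Rpl13a, which in human monocytes is released from the ribosome to silence inflammatory mRNAs, had 121 and 142. These genes stood above percentile 90 in both libraries, so both replicates placed them near the top. Rpl3, which reaches towards the peptidyl transferase centre, had 125 and 139, and Rps2, at the mRNA entry side of the small subunit, had 120 and 142. Rps16 had 123 and 139, and Rpl34 had 119 and 140. Subunits of both kinds were among the 8 highest, and their summits lay between −170 bp (Rpl13a) and 22 bp (Rpsa) from the nearest start, negative values being upstream.

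Rpl6, a large subunit protein, had the lowest open promoter, with 83 in replicate 1 and 109 in replicate 2, at percentile 31.2 and 27.3. Its single peak in each library lay 30 bp downstream of the start. Rpl39, which lines the exit tunnel for the growing peptide, had 86 and 122, and Rps4x, on the X chromosome, had 92 and 118. Rpl5, which carries the 5S rRNA into the ribosome and binds Mdm2 when assembly fails, had 95 and 116. Rpl37a had 95 and 121, and Rpl36a had 102 and 114. Rpl19 had 101 and 116. These genes stood under percentile 54 in both libraries, yet even Rpl6 was above the median height of all peaks in each library.

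Of the stalk proteins, which recruit the elongation factors, Rplp0 had 111 and 131 and Rplp1 had 116 and 132. Rplp2 had 99 in replicate 1 and 139 in replicate 2, one of the widest gaps in rank, with percentile 48.4 in the first and 90.4 in the second. Rps6, the substrate of the S6 kinases downstream of mTOR, had 127 and 135. Rpl38, which in mouse embryos is needed for the translation of a subset of Hox mRNAs, had 115 and 140. Rps6 and Rpl38 are named here for their known roles and lie outside the rule for named genes, and both stood well above the median gene in both libraries.

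The 2 libraries ranked the ribosomal protein genes less tightly than they ranked all open promoters. Spearman's rho of the heights was 0.676 over the 81 open ribosomal protein genes, which span a narrow range of heights, against 0.886 over 14461 protein-coding genes open in both; genes are not independent replicates, and these are descriptions. Height was greater in replicate 2 at 80 of the 81, with a median ratio of 1.17. The same held at 14380 of the 14461 protein-coding genes open in both, with a median ratio of 1.26. Rps26, a protein at the mRNA exit side, was the exception among the 81, with 117 in replicate 1 and 114 in replicate 2. Its percentile was 82.4 in the first and 32.0 in the second, the widest gap in the set. After Rplp2, the next widest were Rpl29 (124 and 129, percentile 94.8 and 57.5), Rps13 (119 and 128, percentile 86.6 and 54.6) and Rps27a, a fusion of ubiquitin and a small subunit protein (85 and 131, percentile 32.8 and 63.7). A position of 1 gene within the set therefore rests on 2 values that can lie far apart.

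The 8 paralog copies split evenly. The 4 open ones were Rpl22l1, with 119 in replicate 1 and 139 in replicate 2 beside 117 and 130 at its parent Rpl22, and Rpl36al, with 110 and 139 beside 102 and 114 at Rpl36a. Rpl7l1 had 112 and 127 beside 105 and 130 at Rpl7, and Rps27l had 111 and 129 beside 106 and 126 at Rps27. Each of these copies was higher than its parent in replicate 1, and Rpl7l1 alone was lower in replicate 2. Of the 4 without a peak, Rpl10l and Rpl39l are known for their use in the testis and Rpl3l for its use in heart and skeletal muscle. The nearest summit lay 33330 bp away from the Rpl10l start in replicate 1 and 54950 bp in replicate 2, and 14335 and 22643 bp away from that of Rpl39l. For Rpl3l it lay 3369 bp away in both, and for Rps27rt 3148 and 2708 bp away. Their parents were open, with 99 and 126 at Rpl10, 86 and 122 at Rpl39, 125 and 139 at Rpl3 and 106 and 126 at Rps27.

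**Figure D2:**
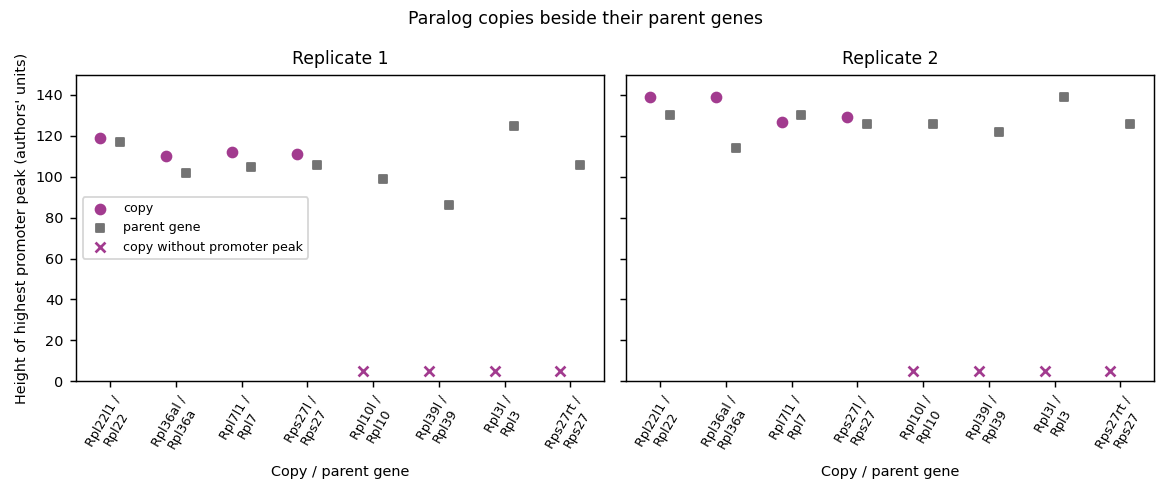
Height of the highest promoter peak (y axis, authors' units) of each paralog copy (circle) beside its parent gene (square), in replicate 1 (left) and replicate 2 (right); crosses near 0 mark copies without a promoter peak and are not heights. The 4 open copies lie between 110 and 119 in replicate 1, all parents have a peak, and the widest gap is that of Rpl36al (139) and Rpl36a (114) in replicate 2.

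The CpG observed to expected ratio in the 1 kb around the start, which is high in CpG islands, was 0.722 at Rpl10l, 0.550 at Rpl39l, 0.172 at Rpl3l and 0.408 at Rps27rt. At the open copies it was 1.02 for Rpl22l1, 1.03 for Rpl36al, 0.637 for Rpl7l1 and 0.814 for Rps27l, so Rpl10l lay above the lowest open copy. Rps27rt is a retrogene copy of Rps27, and 100% of the stretches of 31 bases in the 300 bases after its start occur more than once in the genome, against 0% of those in the 300 bases before it. Reads after that start may not place uniquely, and their part in the absence of a peak was not tested; those before the start can. At Rpl3l and Rpl39l, no such stretch occurred more than once, and at Rpl10l 15.6% did before the start and 23.7% after it. The start windows of 3 copies without a peak are shown in the same form as above, as a contrast to the open promoters.
Rpl10l, chr12:66284382-66284501, minus strand: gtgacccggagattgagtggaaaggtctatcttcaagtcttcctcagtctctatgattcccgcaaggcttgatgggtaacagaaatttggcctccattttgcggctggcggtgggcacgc
Rpl3l, chr17:24727720-24727839, plus strand: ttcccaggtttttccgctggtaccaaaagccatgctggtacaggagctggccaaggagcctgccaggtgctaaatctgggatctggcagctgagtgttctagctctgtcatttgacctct
Rps27rt, chr9:114982720-114982839, minus strand: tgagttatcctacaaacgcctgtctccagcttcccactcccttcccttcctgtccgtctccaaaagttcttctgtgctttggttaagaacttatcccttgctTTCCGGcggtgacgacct

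The Rps27rt window holds 1 CCGGAA match, which lies after the start, in the part whose stretches recur in the genome. Rpl39l had 4 CCGGAA matches in the 300 bases around its start and no peak in either library, so that a match was present at closed as well as open genes.

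Pseudogenes of the family gave a second view of copied sequence. They are mostly processed copies, which carry the transcript and not the promoter. Of 294 annotated ribosomal protein pseudogenes, 13 (4.42%, exact 95% interval 2.38 to 7.44%) had a peak within 1 kb of the 5′ end in both libraries, against 95.3% of the genes. Within 500 bp, 5 (1.70%) did, while the share of the genes stayed at 95.3%. The highest peaks at pseudogenes had a median height of 28 in replicate 1 and 44 in replicate 2, under the lowest open gene in each library. Rpl29-ps2 was the highest, with 114 and 115, and lay within 2 kb of a protein-coding start; it was named after its values were seen. Without pseudogenes that near to a protein-coding start, 12 of 290 (4.14%) had a peak in both libraries. Reads inside a pseudogene may not place uniquely, as after the Rps27rt start, and their part in these low shares was not tested.

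The 4 genes on the X chromosome were low for the set. Rpl10, which acts in subunit joining, had 99 in replicate 1 and 126 in replicate 2, while Rpl39, Rps4x and Rpl36a were among the 8 lowest. Their medians were 95.5 in replicate 1 and 120 in replicate 2, against 114 and 133 at the 77 open autosomal ribosomal protein genes. The same direction held over all open protein-coding promoters, with medians of 76 and 107 at 474 genes on X and 101 and 128 at 13983 autosomal genes. By the mean percentile of both libraries, the ribosomal protein genes on X had a median of 40.4, above the 26.4 of all open genes on X. Males carry a single X and the embryos were of both sexes. The part of that copy number in these heights was not tested.

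Highest peaks lay close to the start, as at other promoters, but with fewer far away than over all open promoters. The summit was a median of 52 bp from the nearest annotated start in replicate 1 and 42 bp in replicate 2, against 66 bp in both over all open protein-coding promoters. It lay within 100 bp of a start at 70 of 81 genes in replicate 1 (86.4%) and at 67 in replicate 2 (82.7%), against 63.7% and 62.9% of all open promoters. Mitochondrial ribosomal protein genes shared this, with 84.6% and 80.8% within 100 bp and median distances of 36 and 35.5 bp. Shares were lower at ribosome assembly factors (77.6% in each library), translation initiation factors (67.9% and 73.6%) and TOP transcripts outside the set (71.4% in each). Upstream of the start lay 61 summits of ribosomal protein genes (75.3%) in replicate 1 and 56 (69.1%) in replicate 2, against 71.2% and 63.7% of all open promoters. The signed median was −43 bp in replicate 1 and −23 bp in replicate 2, close to the −38 and −25 bp of all open promoters. The deposited peaks sit on a grid of 20 bp, so differences of that order between positions are within its step. Summits of the 2 libraries were within 20 bp of each other at 56 of the 81 genes (69.1%), against 61.4% of all, and within 100 bp at 80 (98.8%), against 86.9%. The exception was Rpl18, named after its values were seen, which has annotated starts far apart and whose summits differed by 2720 bp. Its peaks were of nearly equal height, with 122 and 118 in replicate 1 and 135 and 136 in replicate 2, so that a different one led in each library.

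**Figure D3:**
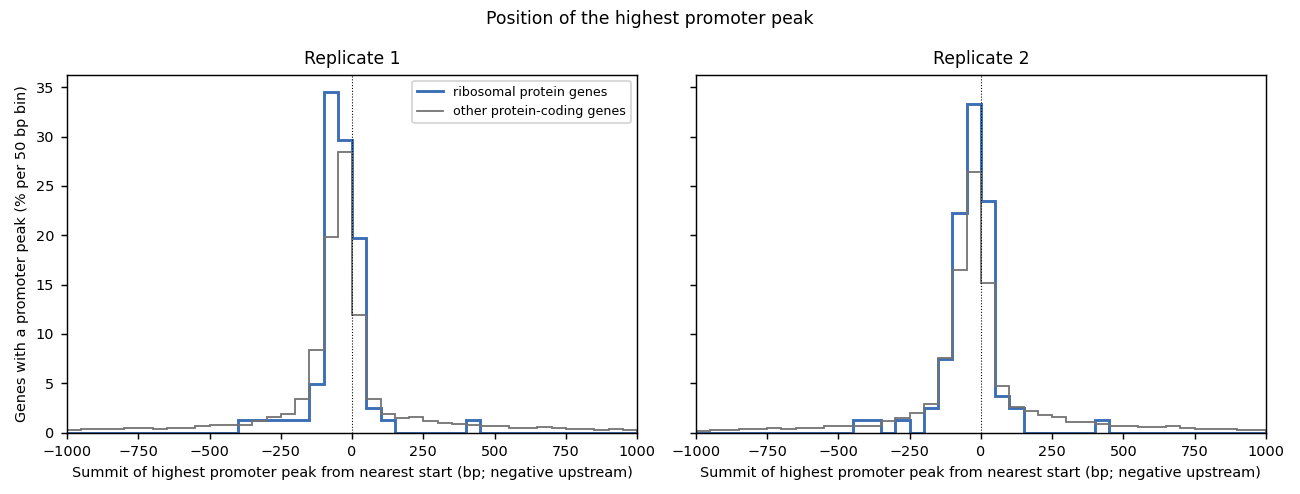
Share of genes with a promoter peak (y axis, percent per bin of 50 bp) by the distance of the summit of the highest peak from the nearest annotated start (x axis, bp, negative upstream), in replicate 1 (left) and replicate 2 (right), for ribosomal protein genes and other protein-coding genes. Both curves are highest just upstream of the start, and the ribosomal protein genes have summits no farther than 433 bp while those of other genes extend to the edges of the window.

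The farthest summits belonged to Rpl35, Rpl4 and Rpl7. At Rpl35 the peak, of 115 in replicate 1 and 136 in replicate 2, lay 433 and 413 bp downstream of the start used. It was 69 and 89 bp from the start of another annotated Rpl35 transcript, which the basic set leaves out, and 157 and 137 bp from that of Arpc5l, a subunit of the Arp2/3 complex. At Rpl4 the peak, of 88 and 129, lay 364 and 424 bp upstream, and 93 and 38 bp from the start of Zwilch, a kinetochore gene on the opposite strand. A second Rpl4 peak lay 16 bp downstream with a height of 87 in replicate 1 and 96 bp downstream with a height of 96 in replicate 2. At Rpl7 the peak, of 105 and 130, lay 329 and 389 bp upstream, within a row of 4 peaks of at least 84 in replicate 1 and 5 of at least 100 in replicate 2. The heights at Rpl35 and Rpl4 were not split between the gene and its neighbour.

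Open ribosomal protein genes did not stand apart in the number of their promoter peaks. They had a mean of 2.54 peaks in replicate 1 and 2.63 in replicate 2, against 2.73 and 2.61 over all open protein-coding genes. A single peak was found at 21 genes (25.9%) in replicate 1 and 14 (17.3%) in replicate 2. Over all open protein-coding genes the shares were 20.5% and 23.5%. At 35 genes (43.2%) and 40 (49.4%) there were 3 or more, against 50.2% and 44.6%. Both directions differed between the libraries. Rps14, a small subunit protein whose loss is studied in bone marrow failure, had most, with 7 in each library around starts that lie far apart. Rpl15 had 5 in each, led by the peak of 125 and 142 described above, with every other peak at or below 42 in replicate 1 and at or below 105 in replicate 2. Rpl31 had 6 and 3, led by 114 and 140. Hotspots over the start were narrower than at other genes, with a median width of 815 bp in replicate 1 and 1210 bp in replicate 2, against 973 and 1636 bp. Rps29 had the narrowest, 159 bp in both libraries, although its peak reached 121 in replicate 1 and 136 in replicate 2. The other lists, described below, were partly near the set. Mitochondrial ribosomal protein genes had median widths of 866 and 1254.5 bp, and ribosome assembly factors 909 and 1448 bp. TOP transcripts outside the set had 1092 and 1448 bp, and translation initiation factors 1041 and 1674 bp. Peaks outside the promoters, between 1 and 10 kb from a start, were counted over all genes, open or closed. A ribosomal protein gene had a mean of 2.95 in replicate 1 and 4.41 in replicate 2, against 1.74 and 2.38 for a protein-coding gene. No such comparison was made over open genes alone, so closed genes may lower the second pair.

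The start regions differed from those of protein-coding genes as a whole in composition and in what lies beside them. The median CpG ratio was 0.814 (quartiles 0.738 and 0.883), against 0.571 (quartiles 0.223 and 0.775) over all protein-coding genes, closed ones included. Ratios in the other lists described below were nearer, with 0.829 at translation initiation factors and 0.864 at TOP transcripts outside the set. Ribosome assembly factors had 0.785 and mitochondrial ribosomal protein genes 0.727. A snoRNA gene lay inside 30 of the 85 (35.3%), against 1.15% of all protein-coding genes, with 5 in Rpl4 and 4 in Rpl13a. The share was 23.8% of TOP transcripts outside the set and 14.3% of ribosome assembly factors. It was 12.7% of translation initiation factors and 0% of mitochondrial ribosomal protein genes. A protein-coding start on the opposite strand, pointing away, lay within 1 kb at 11 (12.9%), against 8.0%. The nearest was that of Ndufa7, a subunit of respiratory complex I, 10 bp from Rps28. Chromosome 7 held 14 of the 85 (16.5%), against 9.19% of all protein-coding genes. Heights were also read by these features. Genes with a CpG ratio above the median of the set had median heights of 116 in replicate 1 and 133 in replicate 2 (n = 40), and those at or below it 109 and 130 (n = 41). The median of their mean percentile was 77.7 above and 64.6 at or below. Genes with a snoRNA had 113.5 and 133 (n = 30), and those without one 112 and 131 (n = 51). Genes with a divergent start had 110 and 132 (n = 11), and those without one 114 and 132 (n = 70).

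Sequence matches were counted in 300 bases, from 250 before to 50 after the representative start, on both strands, and matches describe letters and not binding. CCGGAA was found at 39 of 85 ribosomal protein genes (45.9%), against 18.1% of all protein-coding starts and 24.99% of those with an open promoter in both libraries. TCGCGA, a palindrome, was found at 17 (20%), against 3.39% and 4.91%. CCGGAA or TCGCGA was present at 48 (56.5%), against 20.4% of all starts. AANATGGCG was found at 8 (9.41%), against 3.14% and 4.42%, among them Rpl13a and Rpl34. TGACGTCA, the site of CREB-type factors, was found at 5 (5.88%), against 2.49% and 3.28%.

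Other promoter motifs lay below open promoters in general or within a percentage point or so above them. CCCGCCC, of SP and KLF factors, was found at 35 (41.2%), against 33.5% of all starts and 47.2% of open ones, and CCAAT, of NF-Y, at 26 (30.6%), against 38.6% and 37.6%. CACGTG, the E-box, which Myc can bind, was found at 9 (10.6%), against 7.72% and 9.59%. GCGCATGCG, of NRF1, was found at 2 (2.35%), against 2.50% and 3.15%. TATAA from 40 to 15 bases before the start was found at 2, Rpl23a and Rps27 (2.35%), against 4.24% and 1.71%. AACAATG, of SOX factors, was found at 0 of 85 windows, against 3.40% and 1.96%.

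**Figure D4:**
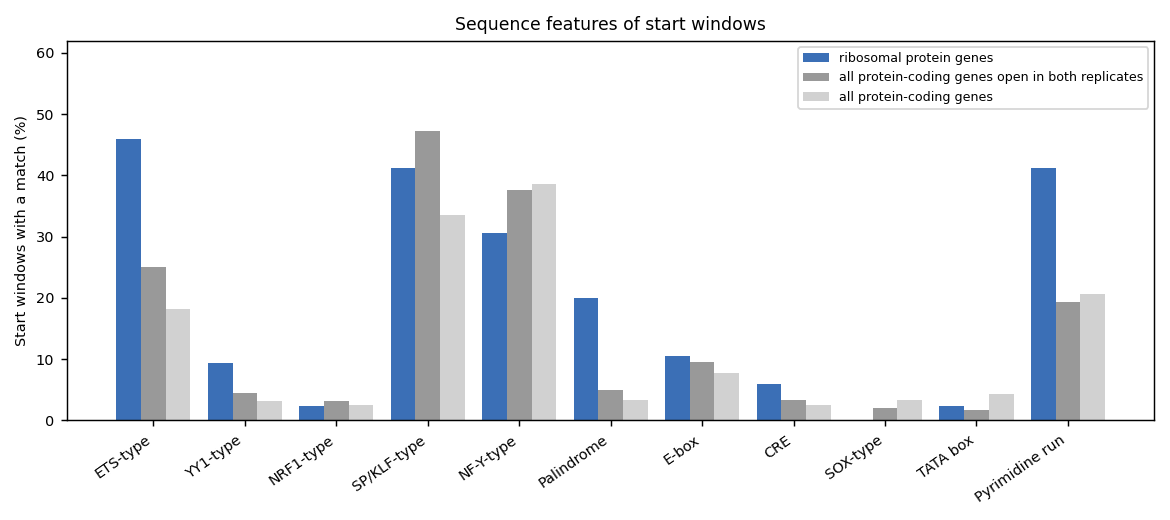
Share of start windows with a match (y axis, percent) for each searched motif or the pyrimidine run (x axis), in ribosomal protein genes, in all protein-coding genes open in both replicates, and in all protein-coding genes. The bars of ribosomal protein genes reach 45.9% for the ETS-type core, 20% for the palindrome and 41.2% for the pyrimidine run, against 24.99%, 4.91% and 19.3% of open genes.

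The positions of CCGGAA and TCGCGA matches were read against the start and the summit. The 17 TCGCGA matches had a median position of −26 bases from the start, with quartiles at −41 and −4. Of these, 14 fell within 75 bp of the summit of the highest peak in replicate 1 and 13 in replicate 2. Of 55 CCGGAA matches at open genes, 37 and 36 did. The searched window itself surrounds most summits, and these counts were not made for other genes or motifs. They therefore show no preference for the summit. Within the 150 bp of the highest peak itself, CCGGAA was found at 49.4% of open ribosomal protein genes in replicate 1 and 44.4% in replicate 2, against 19.6% and 19.3% of all open protein-coding genes. TCGCGA was found there at 18.5% and 17.3%, against 3.65% and 3.76%. Genes with a CCGGAA match had median heights of 115 in replicate 1 and 135 in replicate 2 (n = 37), and those without one 109.5 and 131.5 (n = 44). Genes with a TCGCGA match had 109 and 130 (n = 17), and those without one 113 and 132.5 (n = 64). With or without either motif, the ranges of height overlapped almost fully.

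Start windows of 3 genes with TCGCGA show its place beside the start; they were chosen after the values were seen. Rps15 had peaks of 116 in replicate 1 and 143 in replicate 2. Rpl7a, close to the start of Med22 on the other strand, had 116 and 133, and the values of Rps6 are given above. In Rps6 the window holds CCGGAA as well.
Rps15, chr10:80292353-80292472, plus strand: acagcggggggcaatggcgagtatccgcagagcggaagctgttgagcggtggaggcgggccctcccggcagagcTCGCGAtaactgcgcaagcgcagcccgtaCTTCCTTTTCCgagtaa
Rps6, chr4:86857393-86857512, minus strand: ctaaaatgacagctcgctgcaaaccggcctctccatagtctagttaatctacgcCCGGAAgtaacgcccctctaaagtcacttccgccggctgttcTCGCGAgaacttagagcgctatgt
Rpl7a, chr2:26910664-26910783, plus strand: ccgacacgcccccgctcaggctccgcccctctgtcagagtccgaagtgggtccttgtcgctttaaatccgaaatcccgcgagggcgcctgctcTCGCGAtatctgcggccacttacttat

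With its flanking bases, the palindrome read CTCGCGAG at 9 of the 85 genes (10.6%), against 1.20% of all protein-coding starts, a context searched after the first matches were seen. GTCGCGAC was found at 0, against 0.128%.

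A run of 8 or more pyrimidines near the start, the sequence background of TOP mRNAs, was found at 35 of 85 genes (41.2%), against 20.6% of all protein-coding starts and 19.3% of open ones. The median run was 7 bases, against 5, and the longest, of 19 bases, was in Rps24. Where an annotated start is off by some bases the tract is still counted, since a run only had to overlap 20 bases to either side. Genes with the run had median heights of 114.5 in replicate 1 and 131.5 in replicate 2 (n = 34), and those without it 111 and 133 (n = 47), so the direction differed between the libraries.

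Other genes of protein synthesis gave a scale for these heights. TOP transcripts outside the set, such as those of elongation factors, were all open (21 of 21), with medians of 121 in replicate 1 and 136 in replicate 2, above the 112 and 132 of the ribosomal protein genes. They were led by Pabpc1, the poly(A)-binding protein (121 and 144), with Naca and Hnrnpa1. Fau, which codes for a ribosomal protein fused to a ubiquitin-like protein but carries another symbol, had 121 and 138. Ribosome assembly factors were open at 49 of 49, with medians of 112 and 131, led by Bop1 (128 and 138), Polr1c (121 and 140) and Ncl, or nucleolin (132 and 136). Translation initiation factors were open at 53 of 55, with medians of 111 and 134, and Eif4a1, the helicase of cap-dependent initiation, reached 135 and 144. Eif4e1b and Eif4ebp3 had no promoter peak. That list also takes in eIF2 kinases (Eif2ak1 to Eif2ak4), eIF4E-binding proteins (Eif4ebp1 to Eif4ebp3) and Eif4enif1, which are not initiation factors themselves. It shares Eif2s3x, Eif3e, Eif3f, Eif3h and Eif4b with the TOP transcripts and Eif6 with the assembly factors. Mitochondrial ribosomal protein genes, which serve a separate ribosome, were open at 78 of 78 but lower, with medians of 106 and 129.5, although Mrpl18 reached 126 and 147. A divergent protein-coding start lay beside 29.5% of them, against 12.9% of the cytoplasmic ribosomal protein genes.

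**Figure D5:**
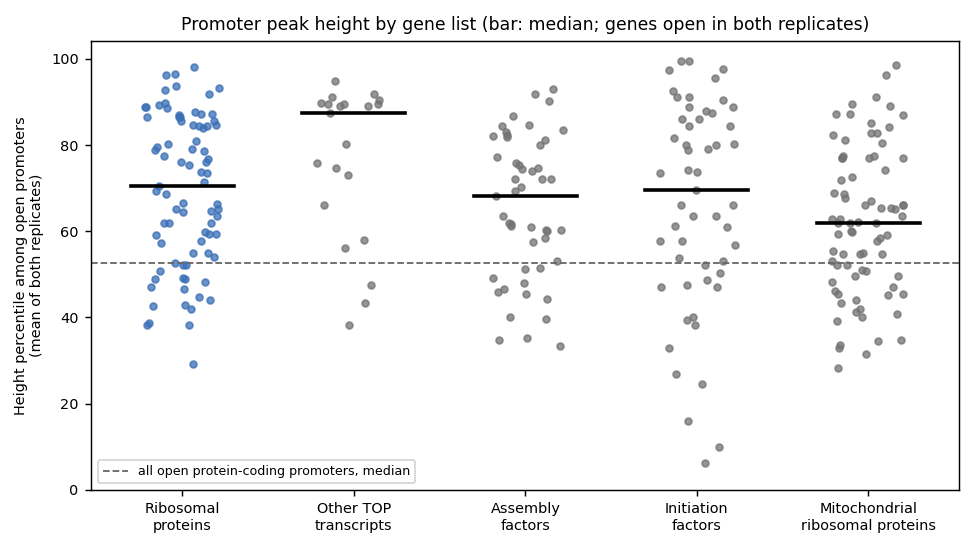
Height percentile among open protein-coding promoters (y axis, mean of both replicates) for the genes of each list that were open in both replicates (x axis; each point is 1 gene, bars are medians), with the median of all open promoters dashed. The median of the ribosomal protein genes is 70.6, that of the other TOP transcripts 87.4 and that of the mitochondrial ribosomal protein genes 61.9, against 52.6 over all, and the points of every list overlap.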

How the data were processed

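DNase-seq peaks and hotspots of 2 hindbrain libraries were analysed, called for each replicate on mm10, per the text beside the files. The authors' deposited peak height is a signal value. Its scaling, the caller and the sequencing depth are not stated in the labels or the text beside the files. The deposited hotspot value is the −log10 of a false discovery rate. Peaks on scaffolds, on the mitochondrial chromosome and repeated entries were left out, which kept 150176 and 194873 peaks. Starts came from the GENCODE M21 basic set, with 1 representative start per gene for sequence windows (APPRIS rank, then support level, then length), and bases from GRCm38.p6. A percentile is the mid-rank of a gene's highest promoter peak among open protein-coding promoters of the same library. Copies of 31-base stretches were counted over the genome.

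The set and the lists were chosen with earlier results of these data known, so no test was made over the set, and values are counts, medians and shares beside all protein-coding genes. Intervals are exact and cover counting error. Named were the 8 highest and 8 lowest genes by mean percentile, all without a peak, the 3 with the farthest summits, the 3 with most peaks, the 5 with the widest percentile gap, stalk genes, Rpsa, X-linked genes, copies with parents, and the leading 3 of each list; other genes were named after their values were seen. A few genes within this rule are not reported here. Peak assignment was checked on simulated data. Alternatives were the window, the starts, the peak threshold, each library alone and the removal of copies. Python 3.11.15, numpy 2.4.6, scipy 1.17.1 and matplotlib 3.10.9 were used.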

Additional observations from a re-analysis of the deposited data

How the results depend on the processing

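No paired analysis was possible because there is 1 group. The share of ribosomal protein genes with a promoter peak was 95.3% with windows of 500 or 2500 bp, with representative starts, with peaks above the library median, with any overlapping base and in each library alone, while the share of all protein-coding genes ran between 62.6 and 69.3%. It was 100% without the paralog copies (77 of 77) and, by construction, with only genes whose highest peak has a single-copy centre (79 of 79). The median number of promoter peaks was 2, and 2.5 with the 2500 bp window, with any overlapping base or without the copies. GCGCATGCG was found at 1 gene with the start nearest to the highest peak, CACGTG at 3 genes in the shorter window, and pseudogenes with a peak fell to 1.70% at 500 bp. The other 79 recomputed values stayed within the margin set for them. That margin was the exact interval for shares and a ratio for motif and pyrimidine run counts. For the rest it was the spread between the 2 libraries, which is wide for heights. The ratio was loose, since CCAAT fell from 26 to 18 genes in the shorter window and stayed within it. Median heights were 112 and 132 under every setting. Unknown depth limits what the absence of a peak shows. The centre of the highest peak was found more than once in the genome at Rpl37a in replicate 1 (2 copies).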
